A study of Mus musculus with 6 samples.

Results

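Transcripts of 10 SOX transcription factor genes were followed in mouse neural stem cell cultures with and without cadmium. The genes were Sox1, Sox2, Sox3, Sox4, Sox5, Sox6, Sox8, Sox9, Sox11 and Sox21, taken by symbol from the deposited tables of counts and of FPKM, where all 10 of the 25241 genes listed were found. The cultures were primary wild type neural stem cells of the subgranular zone, the part of the hippocampus where neurons form in adult life, at passage 3. Each group has 3 libraries, one group kept in 0.8 μM cadmium chloride (CdCl2) over 72 h and the other left untreated. Strain, age and sex of the mice, and the number of animals behind a culture, are not given in the sources used here. Libraries of a group are labelled as biological replicates, with no word on whether animals, platings or wells were separate, so each p-value reflects only how much these samples varied, some of it possibly for technical reasons.

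SOX proteins bind DNA through a high mobility group (HMG) box, which bends the double helix, and they act mostly together with partner factors on shared enhancers. Members with similar boxes form subgroups. SOX1, SOX2 and SOX3 (subgroup SOXB1) keep neural progenitors undifferentiated, and SOX21 (SOXB2) opposes them at many of the same sites. SOX4 and SOX11 (SOXC) promote neuronal differentiation and survival, SOX5 and SOX6 (SOXD) lack an activation domain and modify the work of other SOX proteins, and SOX8 and SOX9 (SOXE) act in glia, SOX9 also in the making and upkeep of neural stem cells.

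The stretch of the coding sequence where the box begins shows how near these genes are to each other, and where reads of one could resemble reads of another. It is given 5′ to 3′ from GENCODE M21 transcripts, 60 bases from the first codon of the arginine-proline-methionine motif, with capitals at the 26 bases that were identical in all 10 genes.

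Sox1: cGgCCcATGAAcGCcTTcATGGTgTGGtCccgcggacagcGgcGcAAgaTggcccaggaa
Sox2: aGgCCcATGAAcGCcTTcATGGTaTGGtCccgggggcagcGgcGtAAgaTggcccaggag
Sox3: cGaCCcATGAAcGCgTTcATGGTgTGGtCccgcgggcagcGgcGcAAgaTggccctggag
Sox21: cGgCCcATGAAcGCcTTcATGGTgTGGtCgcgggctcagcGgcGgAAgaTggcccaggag
Sox4: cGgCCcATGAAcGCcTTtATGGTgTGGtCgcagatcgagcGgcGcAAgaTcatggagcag
Sox11: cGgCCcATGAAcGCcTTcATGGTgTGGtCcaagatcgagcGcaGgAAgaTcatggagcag
Sox5: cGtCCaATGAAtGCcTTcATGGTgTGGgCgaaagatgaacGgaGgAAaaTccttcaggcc
Sox6: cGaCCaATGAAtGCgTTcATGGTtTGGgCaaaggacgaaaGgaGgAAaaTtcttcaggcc
Sox8: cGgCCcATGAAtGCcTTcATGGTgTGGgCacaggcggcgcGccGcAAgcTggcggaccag
Sox9: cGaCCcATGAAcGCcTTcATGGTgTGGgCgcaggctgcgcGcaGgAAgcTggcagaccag

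Over the whole box, 237 bases, the 6 pairs within a subgroup were identical at 82.7% to 89.5% of bases. The 39 pairs across subgroups were identical at 53.2% to 88.2%, with a median of 66.7%. The longest run of bases shared by the transcripts of any pair was 48, between Sox4 and Sox11, followed by 45 between Sox1 and Sox3. The 10 genes lie on 10 different chromosomes. In GENCODE M21, 6 of them (Sox1, Sox2, Sox3, Sox4, Sox11 and Sox21) have a single exon. Several also overlap other transcripts. Sox2 lies in an intron of Sox2ot on the same strand and shares 0 exon bases with it, while Gm26735 lies opposite Sox4 over 54.6% of its exon bases and Gm4675 opposite Sox21 over 18.8%. Gm4675 had 107 to 210 counts a library, against 3549 to 6660 for Sox21. Whether counting used strand is not known, so antisense reads could not be told apart from those of Sox4, Sox5, Sox8 and Sox21.

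Library totals lay between 37710042 and 41523231 counts, and the members had between 2783 and 31062 counts in each library, so the counting error of a single value was at most 1.9%. Control replicate 3 stood apart from the other controls, with a chi-square statistic per degree of freedom over genes of 12.8 and 11.8 against them, where controls 1 and 2 differed by 5.12. It held the highest CPM among the controls for 8 of the 10 members, all but Sox5 and Sox11. Cadmium replicate 2 differed from cadmium replicates 1 and 3 by 6.59 and 6.43, where those differed from each other by 3.43. It had the smallest library total and the lowest CPM among the cadmium libraries for 7 of the 10 members. CPM is the count scaled to a common library total, here after TMM scaling. Levels summed over a gene list, and the levels named as terms of such sums, are CPM without TMM scaling. Neural stem cell markers were present, with Nes between 333 and 383 CPM and Fabp7 between 1505 and 1592 CPM in control libraries.

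Per gene length, Sox2 was the most abundant member in every library. In the deposited FPKM, which scale counts by gene length and library total, it stood at 250, 233 and 250 in control replicates 1, 2 and 3. Sox4 followed at 143 ± 12.4 FPKM (SD, n = 3), then Sox8 at 111 ± 9.13 and Sox3 at 104 ± 3.84, and the ranges of Sox8 and Sox3 overlapped. Below them came Sox9 (64.1 ± 2.3), Sox21 (39.5 ± 3.01), Sox1 (20.6 ± 0.268), Sox11 (12.3 ± 1.05), Sox6 (3.91 ± 0.131) and Sox5 (2.49 ± 0.0506 FPKM), each range apart from its neighbours. In cadmium libraries Sox3 stood second, at 97.1 ± 1.72 FPKM, level with Sox4 at 96.2 ± 4.32, whose range it overlapped. Sox8 came next at 78.5 ± 4.92 FPKM, and from Sox9 down the order was that of the controls, each range apart from its neighbours.

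The FPKM of Sox5 and Sox6 depended on the gene lengths used. Before division by length, control means were 173 CPM for Sox6 and 87.9 for Sox5. Those of Sox11 and Sox1 were 104 and 83.1 CPM. How much of the low FPKM rests on length was not tested. The FPKM correspond to lengths of 35357 bases for Sox5 and 44229 for Sox6, which are 2.46 and 2.98 times the 14376 and 14832 exon bases that GENCODE M21 gives these genes. For the other 8 members the ratio of the lengths was between 0.835 and 1.199. With GENCODE lengths, control libraries had 11.7 ± 0.390 FPKM of Sox6 and 6.13 ± 0.124 of Sox5, and the range of Sox6 overlapped that of Sox11 (12.5 ± 1.06). Sox5 stayed the lowest of the members on this scale, and Sox2 the highest at 293 ± 11.8 FPKM.

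**Figure D1:**
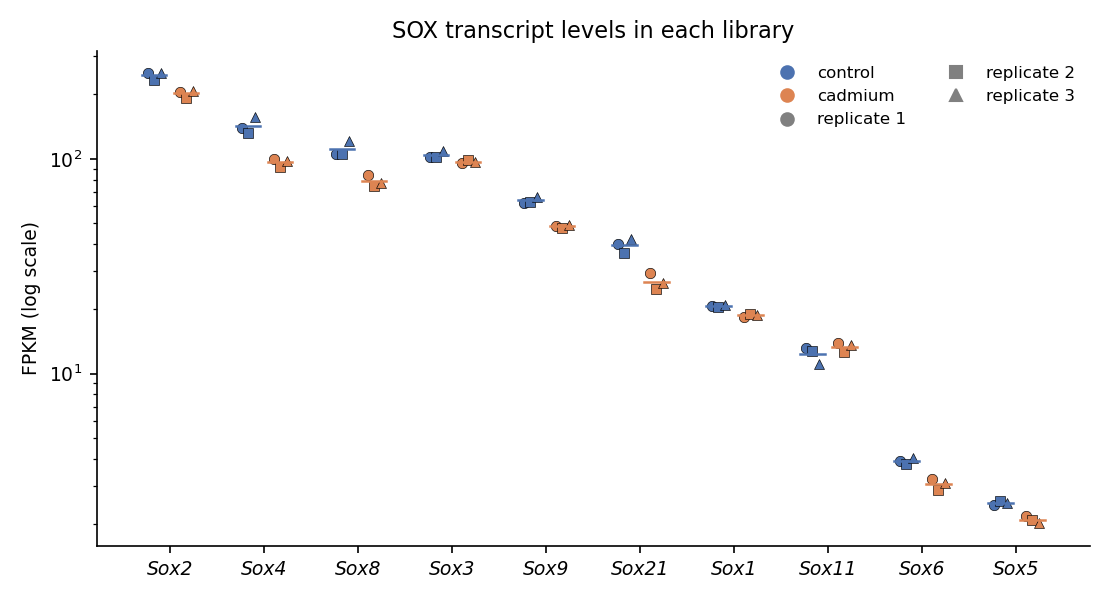
FPKM of the 10 SOX genes on a log axis in each of the 3 control (blue) and 3 cadmium (orange) libraries, with the shape giving the replicate and a line the group mean. Sox2 lies highest at 233 to 250 FPKM in controls and 192 to 207 in cadmium, and only Sox11 has control and cadmium points that overlap.

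After cadmium 8 of the 10 members had fallen and 0 had risen (edgeR, adjusted p below 0.05), where 22.4% of all 14369 genes tested fell and 23.1% rose. The members were chosen with earlier results of these data known, so this contrast is not independent of the choice. DESeq2 also called 0 rises at an adjusted p below 0.05. At an unadjusted p below 0.05 edgeR counted 1, that of Sox11. The largest fall was 1.48-fold. In bulk RNA, fewer cells of a type and less RNA per cell cannot be told apart. The median log2 fold change (cadmium over control) was -0.31 for the members and -0.01 for all genes tested. In 9 members the CPM of the cadmium libraries all lay below those of the controls, which held for 28.3% of all genes tested, while 56.3% were apart in either direction. Of the 1060 tested genes that the deposited table assigns to a transcription factor family, leaving out Sox genes, 264 (24.9%) fell and 156 (14.7%) rose, a class that was chosen after the data were seen.

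Of the SOXB1 genes Sox2 and Sox1 fell and Sox3 did not pass. Sox2 (Entrez 20674), the core factor of stem cell self-renewal, had 612, 571 and 623 CPM in the controls and 508, 477 and 514 CPM in the cadmium libraries, with no overlap. The log2 fold change was -0.27 ± 0.04 (SE, edgeR adjusted p = 0.00016), and the 95% confidence interval of the change ran from -22.2% to -11.5%. Sox1 (20664), a marker of activated hippocampal stem cells, was at 82.1, 81.9 and 85.3 CPM in controls and 73.8, 76.8 and 76.2 CPM after cadmium. Its groups did not overlap either, and it fell by 0.14 ± 0.04 on the log2 scale (adjusted p = 0.022). The change did not pass with cadmium replicate 1 left out (adjusted p = 0.094), with cadmium replicate 3 left out (0.069) or with no low-count filter (0.075), within a range over all alternatives of 0.014 to 0.094. Sox3 (20675), the X-linked member, had 209, 210 and 227 CPM in controls and 199, 206 and 201 CPM after cadmium. Its groups were apart by 2.9 CPM, and its log2 fold change of -0.09 ± 0.04 did not pass (adjusted p = 0.095, 95% interval from -0.18 to 0.000041).

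Sox21 (223227), the SOXB2 member that counters SOXB1 activity, lay between 137 and 162 CPM in controls and between 94.5 and 111 CPM after cadmium. It fell by 0.55 ± 0.07 on the log2 scale (edgeR adjusted p = 5.5e-05), a change of -31.7%, and without control replicate 3 by 0.49. The cadmium libraries were spread as widely as the controls, with a coefficient of variation of 8.31% against 8.37%.

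Of the SOXC genes Sox4 fell and Sox11 did not pass. Sox4 (20677), the member with the most counts in every control library, had 660, 629 and 755 CPM in controls, replicate 3 being the highest, and 476, 439 and 470 CPM in cadmium libraries. The groups lay 153 CPM apart. Its log2 fold change of -0.56 ± 0.06 (edgeR adjusted p = 2.0e-05) was the largest fall among the members, at -32.3% with a 95% interval from -38.2% to -25.7%, and was -0.48 without control replicate 3. Sox11 (20666), a close relative with a largely shared role, stood at 110, 106 and 94.8 CPM in controls and 117, 107 and 115 CPM after cadmium. These ranges overlapped, control replicate 3 being the lowest of all. The log2 fold change of 0.13 ± 0.06 did not pass the threshold (adjusted p = 0.077, 95% interval from 0.01 to 0.25). It passed without control replicate 1 (0.17, adjusted p = 0.030) and with no low-count filter (0.15, adjusted p = 0.013), and it was 0.07 without control replicate 3 (range of adjusted p over all alternatives 0.013 to 0.31).

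Both SOXD genes fell by moderate amounts. Sox6 (20679), which with Sox5 holds oligodendrocyte precursors back from maturing, had 171, 166 and 181 CPM in controls and 143, 127 and 138 CPM after cadmium. This was a log2 fold change of -0.34 ± 0.05 (edgeR adjusted p = 5.8e-05). Sox5 (20678), which also slows the cell cycle of spinal progenitors in the chick, was at 85.5, 89.2 and 89.0 CPM and then at 76.5, 74.1 and 71.5 CPM (-0.25 ± 0.05, adjusted p = 0.00053). In both genes the highest cadmium library lay below the lowest control.

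Both SOXE members also fell. Sox8 (20681), expressed in glial precursors, had 322, 321 and 375 CPM in controls, again highest in replicate 3, and 258, 229 and 237 CPM in cadmium libraries. The log2 fold change was -0.49 ± 0.06 (edgeR adjusted p = 7.6e-05) and -0.41 without control replicate 3. Sox9 (20682), required for gliogenesis and for neural stem cells to form, had 256, 260 and 279 CPM and then 202, 199 and 206 CPM. Its cadmium libraries were the tightest of all members, with a coefficient of variation of 1.68%, and its log2 fold change of -0.39 ± 0.04 had the smallest p of the members (adjusted p = 5.0e-06).

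**Figure D2:**
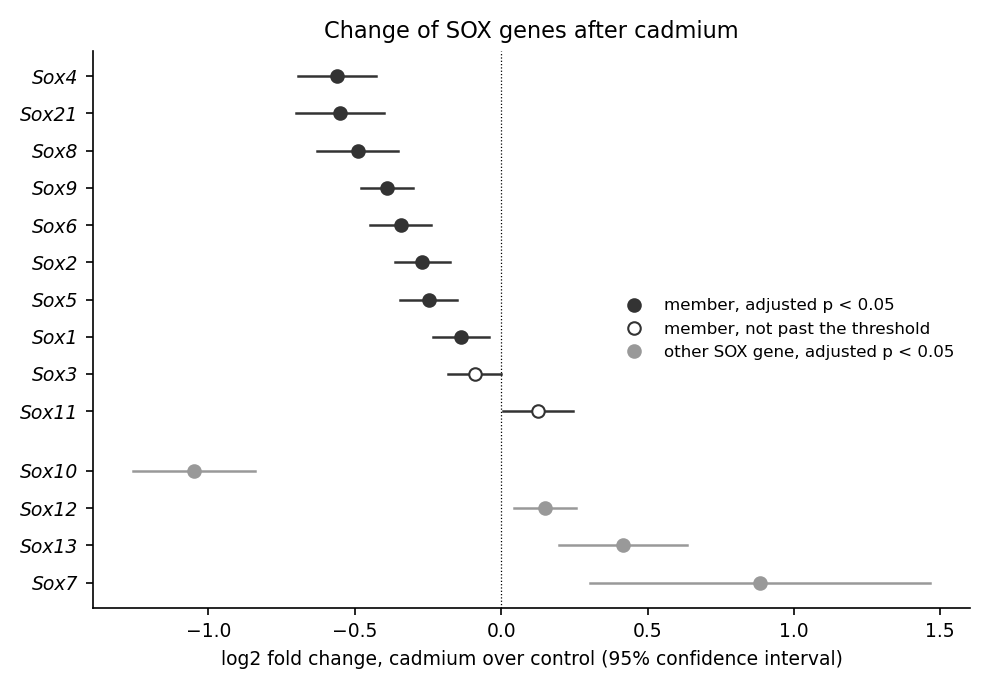
Log2 fold change, cadmium over control, with its 95% confidence interval for the 10 members (black) and the 4 other SOX genes tested (grey); open circles did not reach an adjusted p below 0.05. The members run from -0.56 for Sox4 to 0.13 for Sox11, and Sox10 lies below them at -1.05.

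Ratios of FPKM within a library were compared for 7 pairs by a two-sided exact permutation test, where 3 libraries against 3 allow no p below 0.1, so no pair could pass. Sox4 was 10.6, 10.4 and 14.1 times as abundant as Sox11 in the controls and 7.17, 7.22 and 7.22 times in cadmium libraries, with no overlap (log2 difference -0.69, exact p = 0.1, adjusted over the 7 pairs 0.14). The cadmium libraries were nearly equal in this ratio, and control replicate 3 was the highest. The ratio of Sox21 to Sox2 was 0.161 ± 0.00679 in controls and 0.133 ± 0.00829 in cadmium libraries (SD, n = 3, log2 difference -0.28, exact p = 0.1). For Sox3 to Sox2 it was 0.425 ± 0.0164 and 0.482 ± 0.0284 (0.18, exact p = 0.1, n = 3), and for Sox1 to Sox2 0.0845 ± 0.00285 and 0.0927 ± 0.00512 (0.13, exact p = 0.1, n = 3). The ratio of Sox9 to Sox2 was 0.262 ± 0.0116 and 0.241 ± 0.00664 (-0.12, exact p = 0.1, n = 3). In these 5 pairs the groups did not overlap, and the p adjusted over the 7 pairs was 0.14 for each. They overlapped for Sox5 to Sox6 (log2 difference 0.10) and for Sox8 to Sox9 (-0.10), both at an exact p of 0.3.

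**Figure D3:**
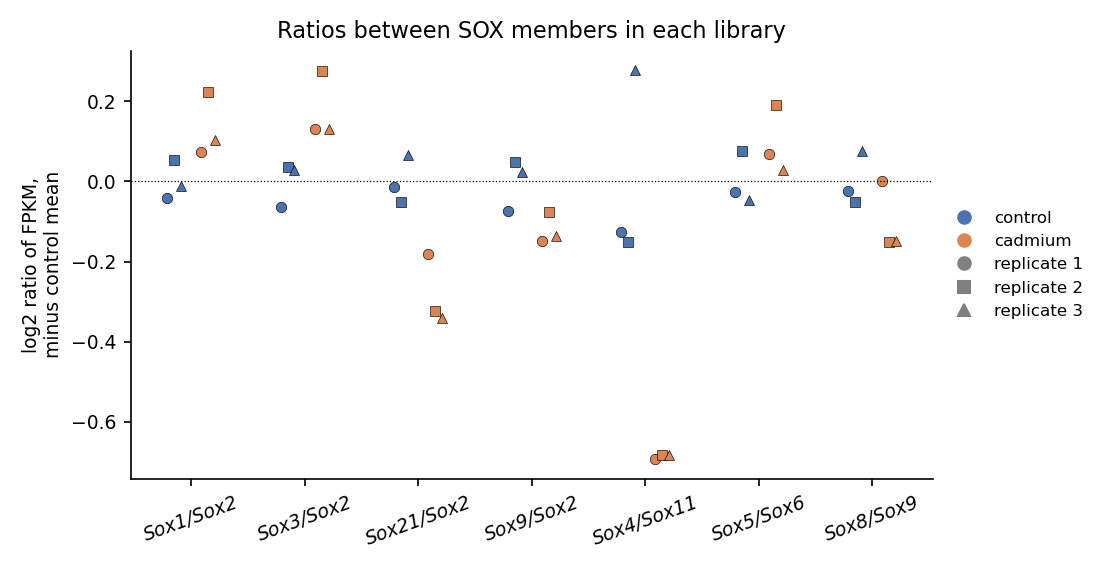
Log2 ratio of the FPKM of 7 pairs of SOX genes in each library, less the mean of the 3 controls, with control libraries in blue, cadmium libraries in orange and the replicate given by shape. The 3 cadmium points of Sox4 to Sox11 coincide 0.69 below the control mean, while Sox5 to Sox6 and Sox8 to Sox9 overlap between groups.

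The 10 members together summed to 740, 712 and 784 FPKM in controls and 600, 566 and 592 FPKM in cadmium libraries, a mean 21.3% lower, with no overlap. The SOXB1 genes held 49.6 ± 1.03% of that sum in controls and 54.2 ± 0.819% in cadmium libraries (SD, n = 3). SOXC went from 20.8 ± 0.514% to 18.7 ± 0.286% and SOXE from 23.5 ± 0.651% to 21.7 ± 0.367%. SOXB2, which is Sox21 alone, went from 5.30 ± 0.173% to 4.57 ± 0.270%, and SOXD held 0.861 ± 0.0274% and 0.879 ± 0.0181%. These shares are a description of the levels already given. With GENCODE lengths SOXD held 2.23% in controls and 2.26% in cadmium libraries, and the SOXB1 share was 51.9% and 56.2%. On CPM, which ignores gene length, SOXD held 9.66% and 9.97%, and SOXB1 33.4% and 36.9%.

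**Figure D4:**
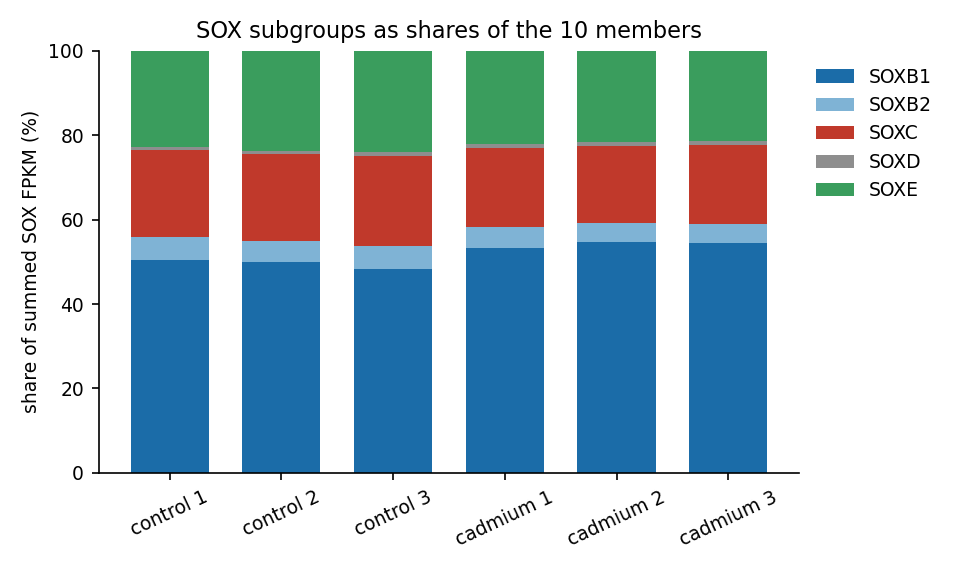
Share of the summed FPKM of the 10 SOX genes held by each subgroup in the 6 libraries, in percent, as stacked bars from 0 to 100. The SOXB1 part is 48.4% to 50.4% in the controls and 53.3% to 54.8% in the cadmium libraries.

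Other SOX genes did not all follow the members. Of the 7 others in the table, 4 had enough counts to be tested, and of these 1 fell and 3 rose. Among all genes tested 22.4% fell and 23.1% rose. Sox10, the SOXE gene that drives the oligodendrocyte lineage, fell from 28.6, 28.8 and 35.4 CPM to 16.0, 13.1 and 15.6 CPM (log2 fold change -1.05 ± 0.10, SE, edgeR adjusted p = 2.4e-06). Sox12, the remaining SOXC gene, went from 70.3 ± 2.83 to 78.0 ± 2.96 CPM (0.15 ± 0.05, adjusted p = 0.022), a call lost without control replicate 1, without cadmium replicate 2, without cadmium replicate 3 and on log2(FPKM + 1) with no filter (highest adjusted p 0.095). Sox13, a further SOXD gene, rose from 7.12, 7.44 and 6.44 CPM to 8.98, 8.95 and 10.1 CPM (0.42 ± 0.10, adjusted p = 0.0039). Sox7, an endothelial SOX gene, was at 0.574 to 0.923 CPM in controls and 1.28 to 1.60 CPM after cadmium (0.88 ± 0.27, adjusted p = 0.015), a call lost without control replicate 2 (0.064) or cadmium replicate 3 (0.072). The long noncoding RNAs that span or adjoin SOXB1 genes both fell, Sox2ot by 0.43 ± 0.11 and Sox1ot by 0.95 ± 0.20 on the log2 scale (edgeR adjusted p = 0.0043 and 0.0013), at below 8 CPM in every library.

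Of 9 known partner factors of SOX2, all tested, 1 rose and 3 fell (median log2 fold change -0.14). Over all genes tested 23.1% rose and 22.4% fell. The number of partner factors that fell was 2 when control replicate 2 or cadmium replicate 3 was left out. Pou3f1, a POU factor that binds beside SOX2, rose from 7.19, 9.95 and 5.32 CPM to 18.5, 26.1 and 21.5 CPM, a log2 fold change of 1.56 ± 0.23 (edgeR adjusted p = 0.0017). Its more abundant relative Pou3f3 went from 330.2 ± 10.6 to 302 ± 2.51 CPM (-0.13 ± 0.04, adjusted p = 0.012). The chromatin remodeller gene Chd7 fell by 0.28 ± 0.04 and Pax6, a progenitor factor that can pair with SOX2, by 0.28 ± 0.06 on the log2 scale.

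Where 23.1% of all genes tested rose and 22.4% fell, genes described as SOX2 targets also went both ways. Of the 13 tested, 4 rose and 5 fell (median -0.12). Those that rose most clearly were Nes, which encodes nestin, from 363 ± 26.2 to 623 ± 33.6 CPM (0.78 ± 0.05, edgeR adjusted p = 3.0e-07), and Ccnd1, the cyclin of G1 phase, from 717 ± 163 to 1950 ± 169 CPM (1.44 ± 0.20, adjusted p = 0.0048). The Notch ligand gene Jag1 also rose (0.80 ± 0.19). Among those that fell were Hes5, a Notch effector, from 120, 109 and 145 CPM to 58.7, 45.7 and 57.7 CPM (-1.20 ± 0.14, adjusted p = 0.00053), Mycn, a growth regulator (-1.19 ± 0.14), and the immediate early gene Fos (-0.49 ± 0.06). Without control replicate 2 the number that fell was 3.

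Partners and glial targets of SOX9 mostly fell, 6 of 7 tested, with 1 rise (median log2 fold change -0.21). Of all genes tested, 22.4% fell and 23.1% rose. Apcdd1 and Mmd2, which SOX9 and NFIA switch on together in developing astrocytes, had log2 fold changes of -1.44 ± 0.14 and -1.29 ± 0.11 (edgeR adjusted p = 0.00018 and 0.00013), with Mmd2 at 494, 506 and 642 CPM in controls and 233, 207 and 232 CPM after cadmium. Zcchc24, another such gene, went from 510 ± 5.10 to 444 ± 9.06 CPM (-0.20 ± 0.04). The glutamate transporter gene Slc1a3 rose (0.19 ± 0.04). Of the cartilage genes that SOX9 drives outside the brain 4 of 7 could be tested, and 2 fell, Col9a1 (-0.79 ± 0.17) and Col2a1 (-1.55 ± 0.44), both under 4 CPM in every library. Col9a1 and Col2a1 dropped out of the test when at least 5 CPM in 3 libraries were asked for, and the number that fell was 1 without control replicate 3. Of 4 genes described as downstream of SOX4 and SOX11, Dcx fell from 4.07 ± 0.448 to 2.12 ± 0.411 CPM (-0.94 ± 0.17, edgeR adjusted p = 0.00048). Tubb3 (0.12), Map2 (-0.09) and Tead2 (-0.03) did not pass. Without control replicate 3, 1 of the 4 rose.

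**Figure D5:**
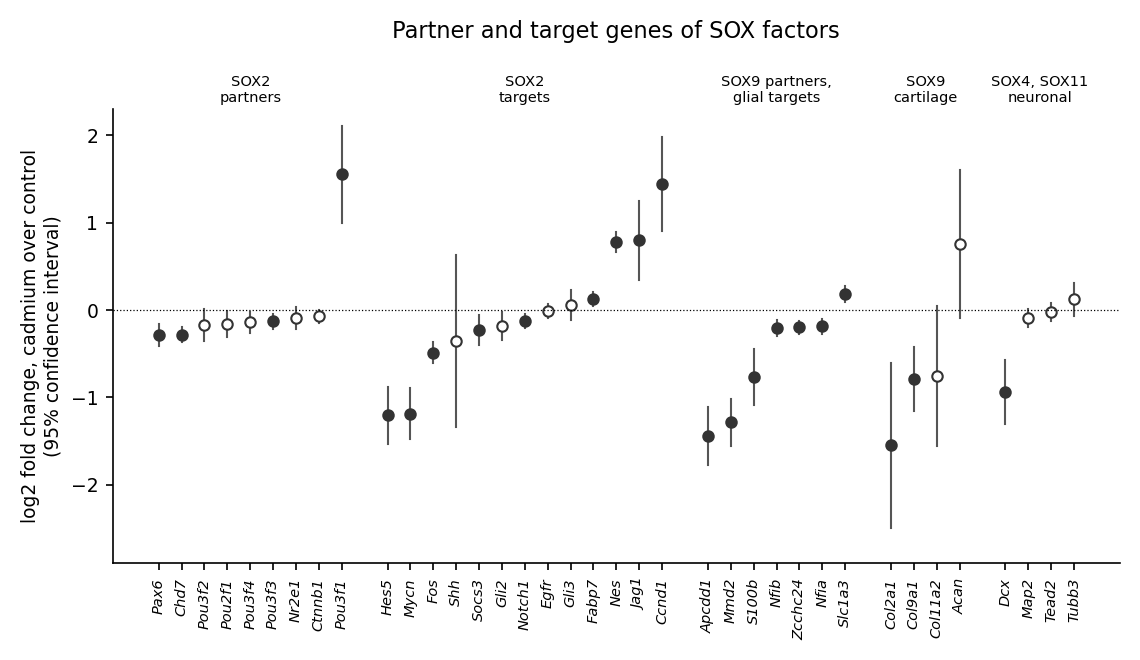
Log2 fold change, cadmium over control, with 95% confidence interval for partner and target genes of SOX factors in 5 lists; filled circles reached an adjusted p below 0.05. SOX2 targets run from -1.20 for Hes5 to 1.44 for Ccnd1, and 6 of 7 SOX9 partners and glial targets lie below 0.

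Promoters were looked at for the 3 members with the smallest p, Sox9, Sox4 and Sox21. RefSeq windows from 250 bases before to 50 after the start (assembly GRCm38.p6, not the GRCm39 named by the submitters) were available for 8 of the 10 members, all but Sox3 and Sox9. Capitals mark the only matches, on either strand, to the SOX cores AACAAT and ACAAAG and the shorter core ACAAT, the metal response element core (TGCGCNC), the antioxidant response element core (TGACNNNGC) and the core bound by the Notch factor RBPJ (TGGGAA).

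Sox4, chr13:28953650-28953949, minus strand: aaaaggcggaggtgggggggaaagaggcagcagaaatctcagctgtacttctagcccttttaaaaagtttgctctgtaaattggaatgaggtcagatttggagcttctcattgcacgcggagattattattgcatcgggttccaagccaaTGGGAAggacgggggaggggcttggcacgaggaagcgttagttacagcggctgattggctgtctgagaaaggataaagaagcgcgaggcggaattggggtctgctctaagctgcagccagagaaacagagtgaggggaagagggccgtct
Sox21, chr14:118236981-118237280, minus strand: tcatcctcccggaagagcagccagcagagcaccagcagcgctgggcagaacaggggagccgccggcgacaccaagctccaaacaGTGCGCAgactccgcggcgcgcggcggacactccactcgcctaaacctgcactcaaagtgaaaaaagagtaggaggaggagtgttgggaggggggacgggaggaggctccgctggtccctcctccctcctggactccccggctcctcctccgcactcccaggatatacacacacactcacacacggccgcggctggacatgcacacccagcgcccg

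The Sox4 window held 1 TGGGAA, a motif found in 25.6% of all 32851 windows of this length, and the Sox21 window held 1 TGCGCNC, found in 15.4%. Among the other members TGCGCNC occurred in the windows of Sox2 (1 match) and Sox11 (2 overlapping matches), of which only Sox2 had fallen. The windows of Sox21, Sox2 and Sox11 had 65.7%, 66.3% and 58.7% GC, against a median of 52.7% over all windows. The share of 15.4% does not account for this difference. The shortest SOX core, ACAAT, which is contained in AACAAT, was found in 31.0% of all windows. The members with a match to it were Sox5 and Sox6. AACAAT was found in Sox6 (10.7% of all windows), ACAAAG in Sox2 and Sox6 (18.7%), TGACNNNGC in Sox1 and Sox8 (12.4%), and TGGGAA also in Sox1. Sox6 had 6 windows, and each other member with a window had 1. The shares are per window, so the matches in Sox6 cannot be set against them.

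Cell type markers were measured in the same libraries, where 22.4% of all genes tested fell and 23.1% rose. Of 9 astrocyte markers 8 fell and 1 rose, and their summed level was 5792 to 6762 CPM in control and 3275 to 3449 CPM in cadmium libraries. Much of this difference lay in Gfap, the largest term in controls. It was at 2532 to 3317 CPM in control and 798 to 911 CPM in cadmium libraries. Gja1, a gap junction gene, fell by 0.98 ± 0.06 and Sparcl1 by 0.68 ± 0.05 on the log2 scale (SE, edgeR). Of 8 oligodendrocyte lineage markers tested 5 fell and 2 rose, with summed levels of 3053 to 3196 and 3113 to 3279 CPM. The growth factor receptor gene Pdgfra had a log2 fold change of -0.98 ± 0.06, while Olig2, a lineage factor, had 0.14 ± 0.05 (adjusted p = 0.036). Of these rises 0 were left without control replicate 1, cadmium replicate 2 or cadmium replicate 3, and 1 was left without control replicate 3, under upper-quartile scaling, with the 5 CPM filter and on FPKM. Sox10, given above, is one of this list. Of 8 stem cell markers 2 rose and 5 fell (2314 to 2466 against 2599 to 2674 CPM), Msi1 by 0.41 ± 0.05. Only 1 of the list rose when control replicate 2, cadmium replicate 1 or cadmium replicate 2 was left out, and on log2(FPKM + 1) with no filter.

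Neuron markers summed to 688 to 729 CPM in control and 604 to 688 CPM in cadmium libraries. Most of each sum was Map2, at 588 to 629 CPM in control and 521 to 598 CPM in cadmium libraries. Its change did not pass. Dcx, Rbfox3, Snap25, Syt1 and Neurod1 each stayed below 5 CPM in every library. Tubb3 and the granule neuron factor gene Prox1 lay between these and Map2. The sums are therefore mainly a measure of Map2. Of the 8 neuron markers, 2 fell, Dcx and Prox1 (-0.26 ± 0.06). The shares over all genes tested were 22.4% that fell and 23.1% that rose. Proliferation markers rose in 3 of 5 cases, with Mcm2 at 0.65 ± 0.07 and summed levels of 1683 to 1906 and 2047 to 2074 CPM. Markers of cells from outside the neural lineage were near 0. Microglia markers summed to at most 0.663 CPM in any library, fibroblast markers to 2.02 CPM and endothelial and mural markers to 4.91 CPM, with Cdh5 at 0 counts throughout. Of these, 1 microglia, 2 fibroblast and 3 endothelial or mural genes were tested, and 0, 1 and 2 of them fell, the last being 1 without control replicate 1 or cadmium replicate 3. Of 4 ependymal markers 2 were tested, Foxj1 fell (-0.51 ± 0.06) and Rarres2 rose (0.65 ± 0.22), and the sum of all 4 went from 57.2 to 66.0 CPM in controls to 41.6 to 45.4 CPM in cadmium libraries. The rise of Rarres2 was lost in 5 of the 6 leave-outs, all but that of cadmium replicate 1, and at the 5 CPM filter. The part of these cell type and proliferation markers in the SOX changes was not tested.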

How the data were processed

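Libraries of 3 untreated and 3 cadmium-treated cultures were analysed from 2 deposited tables. In the first, the authors gave raw counts, which are whole reads for each gene. For upstream work the submitters' processing notes list HISAT2 2.1.0 and HTSeq 0.11.2, along with fastp 0.20.1, DESeq2 1.22.2 and build GRCm39, and give no roles. The second holds FPKM as deposited by the authors, equal to counts over library total and 1 length per gene (largest relative deviation 1.63e-08), so it adds no independent measurement.

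Counts were tested for a group difference by the quasi-likelihood F test of edgeR 4.0.16 (robust, TMM) in R 4.3.3. Of 25241 genes, 14369 passed filterByExpr with a minimum count of 10 and minimum total of 15. Two-sided p-values were adjusted over all genes tested by Benjamini-Hochberg, and "rose" and "fell" mean an adjusted p below 0.05. Standard errors (SE) were taken as |log2 fold change| over the root of F. Alternatives used DESeq2 1.42.0 and limma 3.58.1, other scalings and filters, and leaving out each library. Pair ratios used FPKM plus 0.01. Named genes were all members and, from each list, up to 3 that rose and 3 that fell, by smallest p. Gfap and further neuron markers were named as terms of their sums. The members and lists were chosen with earlier results of these data known. Exons, overlaps and the HMG stretches came from GENCODE M21 (GRCm38), the latter in place of protein sequences. The fit was checked on simulated counts in which far fewer genes changed than the 45.5% called here. That check does not cover so broad a change, or a library that deviates as control replicate 3 did.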

Additional observations from a re-analysis of the deposited data

How the results depend on the processing

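The number of members that fell was 8 under 12 of 15 alternatives. It was 7 with no low-count filter, without cadmium replicate 1 and without cadmium replicate 3, where Sox1 was lost. The number that rose was 1 with no low-count filter and between 0 and 1 on leaving out a library, the rise being that of Sox11. Sox2, Sox4, Sox5, Sox6, Sox8, Sox9 and Sox21 passed under all 15, and Sox3 under none of them. No member changed direction in any of the 15. Deviations of libraries with the same replicate number correlated at r = 0.0234, 0.0517 and -0.0105. These values cannot show whether such libraries shared an animal, plating or day. With the replicate block 8 members fell and 0 rose, as did 3192 and 3317 of all genes. Of 480 alternative counts in gene lists, 445 stayed within 1.5 times the main count. On CPM in place of FPKM, which ignores gene length, the SOXB1 share grew by 3.52 percentage points and the SOXD share by 0.304, against 4.61 and 0.0183. The ratios of member pairs kept direction in all 56 alternatives, though 3 libraries against 3 cannot pass. At 3 libraries a group, the 95% interval of the change ran from -11.8% to 0.00287% for Sox3 and from 0.54% to 18.6% for Sox11.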
